A study of Drosophila melanogaster with 9 samples.

Results

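Whole-fly messenger RNA was compared between F2 flies whose obese grandfather's line passed through the F1 father, called GP/P, and control flies, called WT. The comparison covered every gene with a mean of at least 50 raw counts over the 6 libraries, which kept 11760 of the 13140 genes with counts in all 9 libraries of the study. Just outside that limit lay DNApol-alpha60 and CG13982, with a mean of 49.83 counts, and just inside it Ir41a and snmRNA_649, at exactly 50 counts. Of the 11760 genes, 11511 were protein-coding and 197 were non-coding RNA genes by the gene types that the authors deposited.

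The GP/P flies were wild-type Drosophila melanogaster adults on a Canton S genetic background, 10 to 11 days old, with grandpaternal obesity and a heterozygous F1 father. The WT flies shared species, background, age and genotype, and had no obese grandparent and no heterozygous parent. A further group, GP/M, descended through a heterozygous F1 mother. Its 3 libraries shared the fit, and with it the filter, the scaling, the set terms and the estimate of the spread. The sex of the flies and the number pooled per library are not given in the labels used here. Each group had 3 libraries, which the labels call independent both biologically and experimentally. Every experiment gave a library of each group, so GP/P 1 and WT 1 form set 1, and sets 2 and 3 likewise.

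The grandfathers' obesity traces to mutations of AkhR, the receptor of adipokinetic hormone. This peptide hormone is the fly's counterpart of glucagon: it is released from neurosecretory cells and acts on the fat body, the organ that combines functions of liver and fat tissue, where it sets free stored fat and glycogen. Flies that lack the receptor accumulate fat. The flies sequenced here carry no mutation, so the comparison asks whether transcript levels of grandoffspring differ when only the forebears were mutant, with descent through sperm at both steps.

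The 6 libraries held between 21777434 and 28166388 gene counts. Markers of 9 tissues were looked up among the genes that passed a filter on low counts, so a marker without counts could not appear. For fat body 3 of 4 chosen markers were found there by symbol, for ovary and female fat body 3 of 6, and for each other tissue 4 of 4. A marker not found was either unmatched by symbol or too low for the filter, so its absence is no measurement. Summed over 4 markers each, testis genes were at 1682 to 1756 CPM (counts scaled to a common library size) in GP/P and 1690 to 1845 CPM in WT, and eye genes at 9004 to 9314 CPM in GP/P and 8943 to 9341 CPM in WT. The 3 yolk protein genes measured summed to only 14.9 to 15.8 CPM in GP/P and 13.8 to 22.97 CPM in WT. In bulk RNA of a whole animal, fewer cells of a type and less RNA per cell cannot be told apart, which holds for every result below.

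No gene differed between GP/P and WT past an adjusted p of 0.05 (0.0% of 12913 genes tested) in edgeR (its quasi-likelihood test, with the set as a block), and the smallest adjusted p was 0.546. Most differences were small in this fit. Of the 11760 genes, 86.1% had a 95% interval of the fold change inside 1.25-fold either way (78.4% of the 12913 tested), and 98.5% inside 1.5-fold (91.8% of the 12913). An unadjusted p under 0.05 was reached by 418 genes higher in GP/P (3.55%) and 429 lower (3.65%), or 7.2% in all, beside 3.42%, 3.44% and 6.85% of the 12913 genes tested. In the fit 52.5% of the 11760 genes were above WT, beside 52.1% of the 12913. Without the block 304 of the 11760 genes (2.59%) were at that level. In the authors' deposited table of this comparison the smallest adjusted p was 0.0619.

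Within a set, GP/P minus WT in log2 CPM had an SD over genes of 0.156 in the first set, 0.139 in the second and 0.141 in set 3. The middle 90% of genes therefore lay between 0.853-fold and 1.19-fold in set 1, 0.862-fold and 1.14-fold in set 2, and 0.868-fold and 1.16-fold in set 3. The share of genes past 1.2-fold was 8.10%, 5.45% and 5.77% by set. The differences of a gene in separate sets were nearly unrelated across the 11760 genes. Pearson's r was 0.024 between sets 1 and 2, 0.0098 between sets 1 and 3, and 0.136 between sets 2 and 3, where the genes are not independent of each other. Spearman's rank correlation was 0.102, 0.061 and 0.063 for the same pairs, so which sets were closest depended on the measure. Each of these values sets 4 different libraries against each other. GP/P was on the same side of WT in 3 of 3 sets in 29.9% of the genes, with 1841 higher (15.7%) and 1680 lower (14.3%), beside 29.3%, 15.3% and 14.1% of the 12913.

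**Figure D1:**
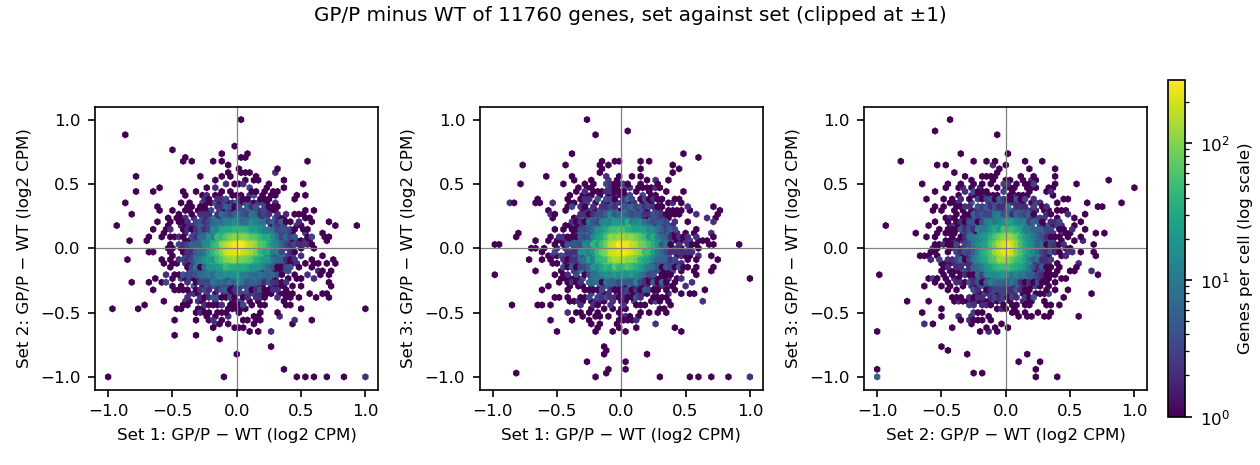
Each panel plots GP/P minus WT (log2 CPM) in a set against the same difference in another set, for 11760 genes counted in hexagonal cells on a log colour scale and clipped at 1 on both sides. The clouds are round, as Pearson's r of 0.024, 0.0098 and 0.136 shows, and centred on 0.

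Precision depended on abundance. Among the 2025 genes with a mean of 50 to 200 counts the median standard error of the log2 fold change was 0.120, and 38.3% had an interval within 1.25-fold. Among the 973 genes with at least 5000 counts the median standard error was 0.0350, and 96.7% had such an interval. In that most abundant class 10.5% of genes were at an unadjusted p under 0.05, and r was 0.177 between sets 1 and 2, 0.024 between sets 1 and 3, and 0.090 between sets 2 and 3.

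The genes with the smallest p among those higher in GP/P included Zw, the gut protease gene Jon99Fii and the myosin gene Myo10A. Their folds ran from 1.10 to 1.19, and all 10 had an adjusted p of 0.546 (edgeR). CG12772 (FBgn0030055), named Rubicon in the reference, was at 24.8, 25.7 and 26.2 CPM in GP/P 1, 2 and 3, against 22.1, 20.5 and 21.7 CPM in WT 1, 2 and 3. All GP/P libraries lay above all WT libraries, and the log2 fold change was 0.25 with a standard error of 0.055. Zw (FBgn0004057) encodes glucose-6-phosphate dehydrogenase, which supplies the NADPH used to build fatty acids. It was at 129, 133 and 138 CPM in GP/P, against 119, 122 and 122 CPM in WT. Its groups did not overlap either, at 1.10-fold with a 95% interval of 1.04 to 1.16.

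Myo10A, an unconventional myosin that carries cargo on actin, was at 23.6, 25.2 and 25.1 CPM in GP/P, against 19.01, 20.7 and 22.6 CPM in WT. CG11526, the gene Strip of a conserved phosphatase and kinase complex, was at 134, 132 and 133 CPM in GP/P, against 119, 120 and 124 CPM in WT. The groups overlapped in neither gene. Jon99Fii, a serine protease of the gut, was at 66.5, 59.4 and 58.2 CPM in GP/P, against 62.1, 52.6 and 49.9 CPM in WT, so its groups overlapped although every set had GP/P above WT. The others were CG16791, CG32043, CG9866 (Atxn7), CG5080 and CG9220 (Chsy, a chondroitin sulfate synthase), at 1.10-fold to 1.17-fold. Of the 10 genes, 8 had groups that did not overlap, beside 4.06% of the 11760 genes and 4.07% of the 12913. Choosing genes by the smallest p in these same libraries favours separate groups, so this count is no further evidence of a difference.

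The genes with the smallest p among those lower in GP/P were headed by Sfp96F and Anp, products of the male reproductive tract. Sfp96F (FBgn0261061), a seminal fluid protein, was at 21.1, 25.4 and 22.3 CPM in GP/P, against 26.8, 32.6 and 25.7 CPM in WT. Every GP/P library lay below every WT library, at 0.81-fold with a 95% interval of 0.74 to 0.88. Anp (FBgn0000094), the antibacterial peptide andropin of the ejaculatory duct, was at 179, 199 and 183 CPM in GP/P, against 217, 234 and 190 CPM in WT. Its groups overlapped through WT 3. Both genes had an adjusted p of 0.546 (edgeR), as had the other 8.

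Ucrh (UQCR-11 in the reference), a subunit of complex III of the respiratory chain, was at 101, 99.5 and 96.2 CPM in GP/P, against 110, 117 and 108 CPM in WT, and the groups did not overlap. CG15068 (BomS6), a short immune-induced peptide, was at 154, 152 and 144 CPM in GP/P, against 170, 179 and 158 CPM in WT. tld encodes the metalloprotease tolloid, which frees bone morphogenetic protein ligands in the embryo. It was at 6.01, 4.28 and 5.69 CPM in GP/P, against 8.36, 6.40 and 6.77 CPM in WT, the lowest fold of the 10 at 0.74. The remaining genes were CG10863, CG9568, CG5506, CG6830 and CG31704, at 0.80-fold to 0.90-fold. Of these 10 genes, 7 had groups that did not overlap, beside 4.42% of the 11760 genes and 4.41% of the 12913. Here too the choice by p favours such genes.

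**Figure D2:**
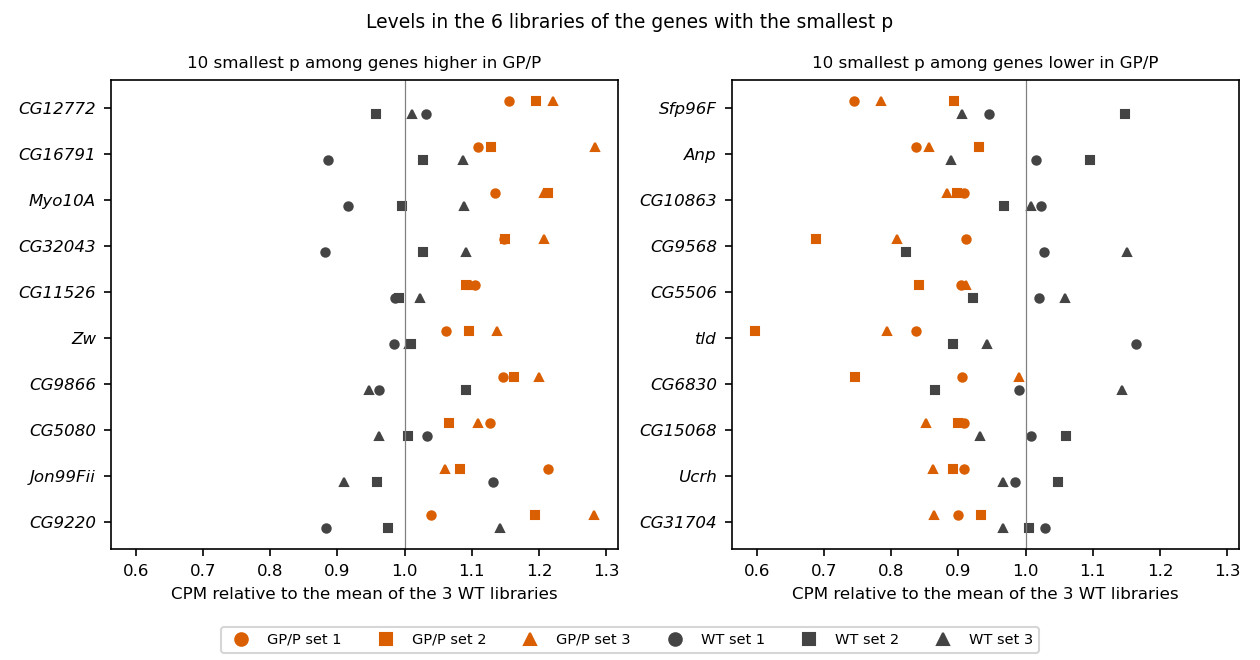
CPM in each library divided by the mean of the 3 WT libraries, for the 10 genes with the smallest p among those higher (left) and lower (right) in GP/P, with orange marks for GP/P, dark marks for WT and the shape giving the set. The orange marks of CG12772 sit right of its dark marks, while for Anp the WT mark of set 3 lies among the orange marks.

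The largest paired differences belonged to scarce or variable genes. CG13375 was at 2.68, 2.60 and 3.19 CPM in GP/P, against 1.94, 1.97 and 2.07 CPM in WT, and CG13947 at 65.9, 81.9 and 78.1 CPM in GP/P, against 64.7, 39.6 and 56.3 CPM in WT. Neither gene had overlapping groups, and the difference of CG13947 was widest in set 2, where WT was lowest. GstD2, a delta class glutathione transferase of detoxification, was at 2.77, 3.02 and 2.76 CPM in GP/P, against 9.78, 7.15 and 3.18 CPM in WT. The GP/P libraries were alike and the WT libraries were not, so that the log2 fold change of -1.20 had a standard error of 0.339 and an adjusted p of 0.695 (edgeR). Without WT 3 it was -1.56 with an adjusted p of 3.14e-06.

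Past 1.2-fold in every set were 4 genes higher (0.034%) and 5 lower (0.0425%) of the 11760, beside 0.163% and 0.194% of the 12913. CG34423 was the most abundant of the 9, at 13.9, 15.9 and 14.4 CPM in GP/P, against 11.5, 11.8 and 11.7 CPM in WT. The groups were well apart, at 1.26-fold with a 95% interval of 1.07 to 1.48. The other higher genes were CG13375, CG7914 and fs_1_Yb, a gene of the piRNA pathway in ovarian somatic cells, and all 3 are on the X chromosome. The lower genes were CG33474, CG43165, CG43249, the non-coding CR43610 and Eo, annotated as ecdysone oxidase and also on the X chromosome. Eo was at 2.30, 2.64 and 2.76 CPM in GP/P, against 2.89, 4.23 and 3.91 CPM in WT, without overlap.

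The genes of the AKH pathway itself lay close to WT. GRHR, the symbol under which AkhR (FBgn0025595) was deposited, was at 76.8, 91.9 and 87.2 CPM in GP/P, against 77.2, 86.8 and 92.1 CPM in WT. Both groups were lowest in set 1 and their ranges nearly coincided, at 0.998-fold with a 95% interval of 0.92 to 1.08. Akh, the hormone gene, was at 11.5, 12.4 and 11.3 CPM in GP/P, against 12.2, 12.8 and 12.5 CPM in WT. It was below WT in 3 of 3 sets, at 0.94-fold with an adjusted p of 0.867 (edgeR).

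Among the other fat mobilisation genes, bmm, which encodes a triglyceride lipase, had 169, 130 and 169 CPM in GP/P, against 145, 143 and 163 CPM in WT. The hormone-sensitive lipase gene Hsl, deposited as CG11055, was at 70.4, 71.8 and 72.7 CPM in GP/P, against 67.1, 69.2 and 71.9 CPM in WT. The groups overlapped in both genes. Lsd-1, which encodes the lipid droplet coat protein perilipin that the hormone's signal acts on, was at 571, 543 and 594 CPM in GP/P, against 513, 540 and 513 CPM in WT. All GP/P libraries lay above all WT libraries, at 1.09-fold with an interval of 1.03 to 1.15 and an adjusted p of 0.557 (edgeR). Of the 9 genes of this list, 5 were above WT and 4 below, and the median log2 fold change was 0.003, beside 0.0038 over the 11760 genes.

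Lists of genes with a shared function are given below by their counts and medians, beside the 11760 genes, of which 52.5% were above WT and 7.2% at an unadjusted p under 0.05. No member of any list passed the adjusted threshold.

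Most genes of carbon metabolism had slightly higher values in GP/P in the fit, though not every list did so in each set. Of 12 glycolysis genes, 11 were above WT and 8 were above it in 3 of 3 sets, beside 15.7% of the 11760 genes. The median was 0.05 in log2, and by set 0.042, 0.046 and 0.051. The aldolase gene Ald, the only member at an unadjusted p under 0.05, was at 3301, 3362 and 3395 CPM in GP/P, against 3090, 3122 and 3258 CPM in WT. Its groups did not overlap, at 1.06-fold. Eno, the enolase gene, was at 1350, 1441 and 1430 CPM in GP/P, against 1298, 1377 and 1374 CPM in WT, a step of similar size in each set.

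Of 16 genes of the TCA cycle, 14 were above WT, 1 at an unadjusted p under 0.05. This was the aconitase gene Acon, at 1445, 1386 and 1445 CPM in GP/P, against 1328, 1348 and 1378 CPM in WT, with no overlap. Of 16 genes of mitochondrial fatty acid oxidation, 13 were above WT and 6 were so in 3 of 3 sets. CG3902, an acyl-CoA dehydrogenase gene, was at 717, 763 and 739 CPM in GP/P, against 637, 722 and 737 CPM in WT, nearly level in set 3. Among 11 genes of fatty acid and glyceride synthesis 7 were above WT, with Zw and the phosphatidate phosphatase gene Lpin at an unadjusted p under 0.05. The sets differed, with 9, 3 and 8 of the 11 above WT and medians of 0.148, -0.029 and 0.042 in sets 1, 2 and 3. Of 13 genes of trehalose, glycogen and gluconeogenesis 10 were above WT in the fit. By set 10, 6 and 7 were above it, with medians of 0.062, -0.002 and 0.005. After removal of a trend with exon length from each library, 8 of the 13 were above WT, with 0 at an unadjusted p under 0.05. Those above WT in the fit included Pepck, the key enzyme of gluconeogenesis, and GlyP, glycogen phosphorylase, at 1.06-fold. Pepck was at 2350, 2239 and 2315 CPM in GP/P, against 1989, 2216 and 2200 CPM in WT.

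Nuclear genes of the respiratory chain were more often below WT: 54 of 84, with 0 higher and 8 lower at an unadjusted p under 0.05. Besides Ucrh, the cytochrome c oxidase gene CG10396 (COX4L) was at 107, 106 and 97.1 CPM in GP/P, against 117, 112 and 110 CPM in WT. Once a trend with exon length had been removed from each library, 53 of 83 were above WT, with 3 higher and 2 lower at that level, and the median of -0.02 became 0.01. Without the block 2 were lower at that level. The mitochondrial genome's own transcripts went opposite ways in different sets, with medians over 10 genes of -0.28, 0.44 and -0.04 by set. mt_Cyt-b, the cytochrome b gene, was at 153, 237 and 177 CPM in GP/P, against 219, 140 and 162 CPM in WT, lowest in WT 2 and highest in GP/P 2.

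Insulin signalling genes, which act against AKH on stored fuel, were mixed, with 8 of 21 above WT. Ilp3, an insulin-like peptide of the brain, was at 1.70, 2.14 and 1.75 CPM in GP/P, against 2.53, 2.34 and 2.62 CPM in WT. The groups did not overlap, at 0.75-fold with an interval of 0.58 to 0.98. Tsc1, a brake on the growth kinase TOR, was at 44.9, 50.1 and 48.7 CPM in GP/P, against 40.0, 44.6 and 44.9 CPM in WT.

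Muscle genes had higher values in GP/P in 24 of 31 cases, and 19 of the 31 were higher in 3 of 3 sets with 0 lower. At an unadjusted p under 0.05 there were 8 higher and 0 lower. The median was 0.06 in log2, and 0.064, 0.032 and 0.054 in sets 1, 2 and 3. Those 8 were genes of the sarcomere and its calcium supply together with Myo10A, the unconventional myosin described above, which the list also counts. Unc-89, the giant obscurin-like protein of the M line, was at 246, 245 and 276 CPM in GP/P, against 198, 229 and 257 CPM in WT. Strn-Mlck, a titin-like myosin light chain kinase, was at 287, 276 and 309 CPM in GP/P, against 230, 259 and 288 CPM in WT. In both genes GP/P was above WT in every set, WT 1 was the lowest library, and the groups overlapped.

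Zasp52 of the Z disc was at 1.08-fold, Prm (paramyosin) at 1.07-fold, bt (projectin) at 1.06-fold, tmod (tropomodulin) at 1.05-fold and the calcium pump gene Ca-P60A at 1.05-fold. The myosin heavy chain gene Mhc was at 1463, 1465 and 1662 CPM in GP/P, against 1153, 1440 and 1564 CPM in WT, close together in set 2. The difference varied with exon length across all genes tested. Among the 3102 tested genes with the longest exons (median 4626 bases) the median log2 difference was 0.086, 0.014 and 0.009 in sets 1, 2 and 3, and among the 3105 with the shortest (median 747 bases) it was -0.070, -0.033 and -0.022. After a trend with exon length was removed, the muscle median was 0.02 over the 28 members with a length, against 0.05 before, and 21 of 28 were above WT, 4 of them at an unadjusted p under 0.05. That number was also 4 without GP/P 2, 5 without WT 1 and 1 without the block. The summed level of 4 muscle markers was 2374 to 2593 CPM in GP/P and 2050 to 2505 CPM in WT. Glycolysis likewise was at 0.03 after removal.

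Seminal fluid and accessory gland genes had lower values in GP/P in 45 of 48 cases, with 0 higher and 19 lower at an unadjusted p under 0.05, beside 3.65% of the 11760 genes lower. These proteins pass to the female at mating, where they change her egg laying, feeding and willingness to remate. The difference rested on sets 1 and 2: the median log2 difference was -0.21, -0.14 and 0.02 by set. Summed over the 48 genes, the level was 10631, 11085 and 10814 CPM in GP/P 1, 2 and 3, against 12302, 12162 and 10416 CPM in WT 1, 2 and 3. The GP/P libraries were alike, and WT 3 stood apart from WT 1 and WT 2, being the lowest WT library in 44 of the 48 genes.

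Acp70A, the sex peptide that switches females to egg laying, was at 167, 170 and 178 CPM in GP/P, against 222, 232 and 173 CPM in WT. Its relative Dup99B was at 510, 541 and 512 CPM in GP/P, against 628, 621 and 520 CPM in WT. In both, WT 3 lay at the GP/P level. Acp36DE, which serves sperm storage, was at 1472, 1598 and 1633 CPM in GP/P, against 1607, 1653 and 1527 CPM in WT, so its groups overlapped.

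Other members were lower in every set. Acp76A, a serpin, was at 135, 137 and 138 CPM in GP/P, against 154, 153 and 147 CPM in WT. Sfp70A4 was at 38.3, 36.6 and 39.4 CPM in GP/P, against 42.8, 49.1 and 41.4 CPM in WT. In both the groups did not overlap. With the exon length trend removed, 36 of 47 members were below WT, 9 of them at an unadjusted p under 0.05, and the median was -0.04 against -0.09 before. The number at that level was 33 without WT 3 or without GP/P 3, 9 or 10 without WT 1, GP/P 1 or GP/P 2, and 12 without the block. Summed accessory gland markers, themselves 4 members of the list, were at 2398 to 2586 CPM in GP/P and 2475 to 2785 CPM in WT.

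Products of other parts of the male tract gave like values in PebII, a protein of the ejaculatory bulb, at 752, 770 and 775 CPM in GP/P, against 916, 870 and 747 CPM in WT. Sperm and late spermatid genes were above WT in 11 of 23 cases with a median of -0.01. Of the 23, 2 were higher and 8 lower in 3 of 3 sets, and 0 were higher and 3 lower at an unadjusted p under 0.05. Mst84Da, a sperm tail gene, was at 232, 234 and 208 CPM in GP/P, against 259, 250 and 216 CPM in WT. Summed testis markers differed by -0.07 in log2 in set 1, 0.003 in set 2 and -0.006 in set 3, and their part in the seminal fluid difference was not tested.

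**Figure D3:**
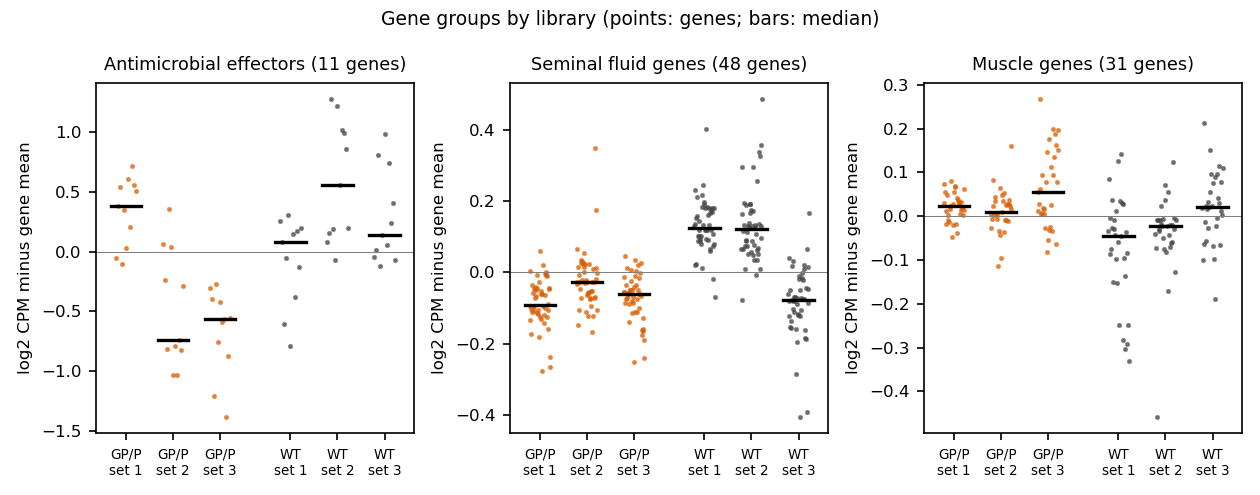
log2 CPM of each gene minus its mean over the 6 libraries, for 11 antimicrobial effector genes, 48 seminal fluid genes and 31 muscle genes, with a point for each gene and a bar at the median of each library (orange GP/P, dark WT). GP/P 1 stands above GP/P 2 and 3 in the antimicrobial panel, and WT 3 stands below WT 1 and 2 in the seminal fluid panel.

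Antimicrobial peptides and peptidoglycan recognition proteins, the effectors and sensors of humoral immunity, were below WT in 26 of 27 genes in the fit, with 1 at an unadjusted p under 0.05. The sets went opposite ways: the median log2 difference was 0.05, -0.21 and -0.21 by set. Dpt, the antibacterial diptericin, was at 45.4, 17.7 and 13.5 CPM in GP/P, against 20.5, 75.6 and 54.5 CPM in WT. It was higher in GP/P in set 1 and lower in sets 2 and 3. The fold of 0.56 had a 95% interval of 0.054 to 5.90.

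Dro (drosocin), Mtk (metchnikowin) and AttC (an attacin) were likewise highest in WT 2 among the GP/P and WT libraries, and above WT only in set 1. Among all 9 libraries of the fit GP/M 3 was the highest for these genes and for Dpt, which was at 204.0 CPM there. Dro was at 29.1, 13.9 and 21.2 CPM in GP/P, against 16.5, 66.4 and 56.4 CPM in WT. Summed over 11 effector genes, a subset chosen after its values were seen, the level was 471, 256 and 229 CPM in GP/P, against 344, 605 and 463 CPM in WT. Of the 11, 9 were above WT in set 1, 2 in set 2 and 0 in set 3. Drs, the antifungal drosomycin of the Toll pathway, did not share this: it was at 27.3, 37.6 and 24.3 CPM in GP/P, against 28.2, 33.5 and 26.9 CPM in WT.

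The immune-induced peptide gene IM14 was the member at an unadjusted p under 0.05, at 53.6, 47.2 and 52.2 CPM in GP/P, against 62.7, 60.4 and 55.3 CPM in WT, without overlap. The sensor gene PGRP-SD was at 19.3, 14.99 and 13.97 CPM in GP/P, against 17.5, 19.5 and 20.3 CPM in WT. Without GP/P 1 the list had 25 of 27 genes below WT, 11 of them at an unadjusted p under 0.05, and a median of -0.25. Without any other single library that number was 0 to 6. Without GP/P 3 the median was -0.06 with 20 of 27 below WT, and without WT 2 it was -0.08 with 21 of 27 below. Hemocyte genes, which mark circulating blood cells, were above WT in 8 of 13 cases, with medians of 0.03, -0.02 and 0.13 by set. At an unadjusted p under 0.05 there were 3 higher, Pxn, nimC1 and nimC2, and 0 lower, with nimC1 at 39.9, 42.1 and 40.6 CPM in GP/P, against 35.3, 39.7 and 36.7 CPM in WT. Hml, the hemolectin of plasmatocytes, was at 168.6, 175.4 and 204.5 CPM in GP/P, against 141.0, 185.6 and 204.3 CPM in WT, lower in set 2.

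The Turandot stress factors, secreted after infection, heat or drying, also split by set, with medians over 4 genes of -0.21, 0.45 and 0.22. TotA was at 331, 382 and 443 CPM in GP/P, against 398, 285 and 395 CPM in WT. Without GP/P 1, its relative TotC was at 1.33-fold with an adjusted p of 0.0207 (edgeR), against 1.16-fold with all libraries.

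Chaperone genes were above WT in 18 of 21 cases with a median of 0.03. Hsp83, the fly's Hsp90, was at 1125, 1245 and 1128 CPM in GP/P, against 992, 1156 and 1087 CPM in WT. The abundant Hsc70-4 was at 2575, 2444 and 2465 CPM in GP/P, against 2420, 2377 and 2324 CPM in WT, without overlap. Polycomb, trithorax and heterochromatin genes, which keep chromatin states through cell divisions, were above WT in 15 of 21 cases with a median of 0.07, which was 0.03 after the length trend was removed. ph-p, a core subunit of a Polycomb complex, was at 14.2, 15.4 and 15.3 CPM in GP/P, against 11.9, 14.4 and 13.9 CPM in WT, above WT in each set.

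Small RNA genes, which carry silencing signals in the germ line, were close to WT. Of 8 piRNA pathway genes 5 were above WT, and of 8 siRNA and microRNA genes 7, with medians of 0.01 and 0.02. piwi was at 2.94, 2.14 and 2.26 CPM in GP/P, against 2.97, 2.76 and 3.36 CPM in WT, with GP/P 1 inside the WT range. Dcr-2 of the siRNA pathway was at 65.9, 73.9 and 74.0 CPM in GP/P, against 59.8, 68.4 and 72.2 CPM in WT.

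Large housekeeping families had medians close to 0 in the fit. Cytosolic ribosomal protein genes were above WT in 34 of 93 cases (median -0.01) and mitochondrial ribosomal protein genes in 22 of 73 (median -0.03), and both medians were 0.01 after the length trend was removed. The sets differed for the cytosolic genes, with 9, 41 and 69 of the 93 above WT and medians of -0.076, -0.011 and 0.041 by set. At an unadjusted p under 0.05, 0 of the 93 were higher and 8 lower. Proteasome and vacuolar ATPase genes had medians of -0.01 and 0.00. Cytochrome P450 genes were above WT in 24 of 77 cases (median -0.02), with Cyp6w1 at 141, 116 and 132 CPM in GP/P, against 167, 119 and 142 CPM in WT, lower in each set.

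Among lists of other tissues and functions, circadian clock genes were above WT in 8 of 11 cases (median 0.05), phototransduction genes in 14 of 22 (0.01), neuron genes in 7 of 15 (-0.01), cuticle protein genes in 15 of 23 (0.02), odorant-binding protein genes in 16 of 33 (-0.01) and gut digestive genes in 21 of 39 (0.00). Of these 6 lists, circadian clock genes had 0 members at an unadjusted p under 0.05, as had phototransduction and neuron genes.

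**Figure D4:**
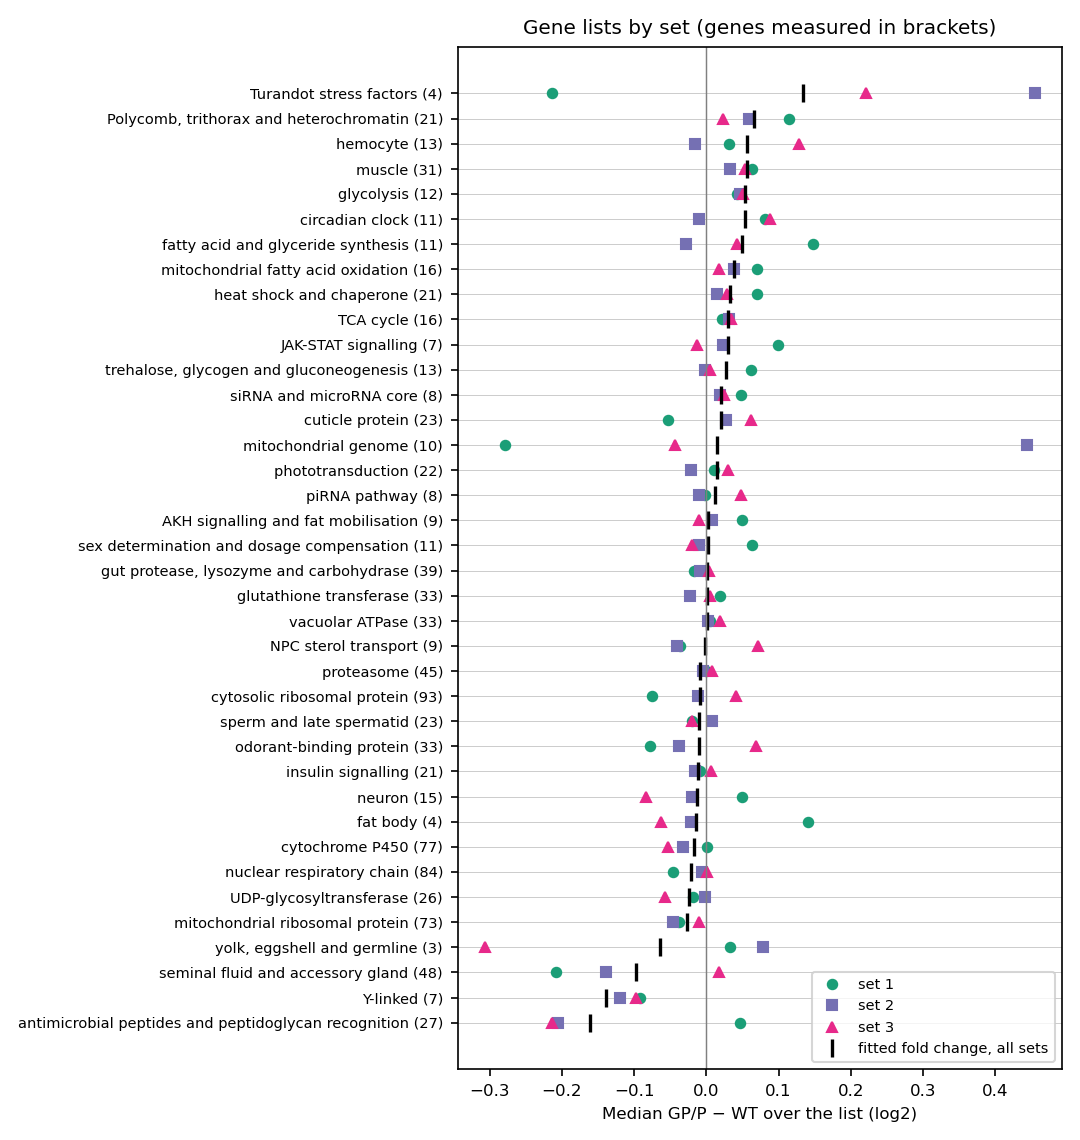
Median of GP/P minus WT (log2) over the genes of each list in set 1 (circles), set 2 (squares) and set 3 (triangles), with a black bar for the median fitted fold change and the number of genes measured in brackets. Glycolysis and muscle have all 3 marks right of 0, while the mitochondrial genome runs from -0.28 to 0.44 and the seminal fluid list from -0.21 to 0.02.

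By chromosome, X-linked genes were more often above WT than autosomal ones. Of 1765 X-linked genes, 61.98% were above WT in the fit, against 50.4% of 9522 autosomal genes. In sets 1, 2 and 3 the share was 57.6%, 56.7% and 54.4% on the X, against 51.7%, 48.8% and 48.8% on the autosomes. At an unadjusted p under 0.05 there were 95 X-linked genes higher and 34 lower, against 291 and 377 autosomal genes. The size was small, with a median of 0.02 on the X and 0.00 on the autosomes, and 366 X-linked genes (20.7%) were higher and 198 (11.2%) lower in 3 of 3 sets. On the autosomes 1380 genes (14.5%) were higher and 1425 (14.97%) lower in 3 of 3 sets.

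X-linked genes were also longer, with a median exon length of 2134 bases against 1820 bases. With the length trend removed, 56.7% of X-linked and 47.8% of autosomal genes were above WT. At an unadjusted p under 0.05, 65 X-linked genes were then higher and 32 lower, against 229 and 335 autosomal genes. Without the block, 32 X-linked genes were higher and 15 lower at that level, against 89 and 155 autosomal genes. When each library was left out in turn, the X-linked share ran from 56.0% without GP/P 2 to 61.8% without GP/M 1. No test was made of the difference between chromosomes.

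**Figure D5:**
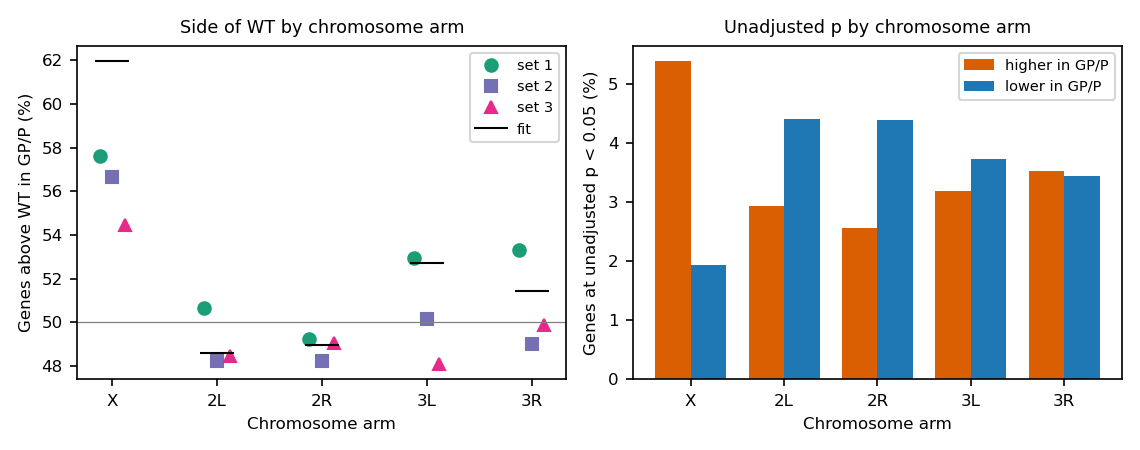
Share of genes above WT (left, in % of the arm's genes, by set and in the fit) and share at an unadjusted p under 0.05 in each direction (right, in %), by chromosome arm. The X is above the 4 large autosomal arms in every set, and it has 5.38% of its genes higher and 1.93% lower, while on the autosomes as a whole 3.06% were higher and 3.96% lower.

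Y-linked genes, which pass from father to son, were below WT in 7 of 7 cases in the fit, 2 of them at an unadjusted p under 0.05, with a median of -0.14. kl-2, a dynein heavy chain of the sperm tail, was at 7.75, 7.07 and 9.42 CPM in GP/P, against 8.47, 9.29 and 10.1 CPM in WT. It was lower in each set, at 0.87-fold with an interval of 0.77 to 0.98. ARY was at 16.5, 15.2 and 16.7 CPM in GP/P, against 17.6, 17.7 and 17.9 CPM in WT, with no overlap. The sets were less uniform for the other 5: kl-3, kl-5 and Ppr-Y were above WT in set 1, and Ory and Pp1-Y2 in set 2. Without GP/P 3, 4 of the 7 were below WT.

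The genes next to AkhR on chromosome arm 2L were also described as a group. Of the 100 tested genes nearest to AkhR, 50 on each side, 60 were above WT, with 4 higher and 2 lower at an unadjusted p under 0.05 and a median of 0.01. The non-coding CR43610 in this stretch was at 4.69, 3.98 and 3.58 CPM in GP/P, against 5.78, 5.19 and 4.83 CPM in WT, below WT in each set. Of the 20 nearest, 13 were above WT in the fit, and 18, 7 and 9 were so in sets 1, 2 and 3. By set, 61, 49 and 53 of the 100 genes were above WT. Beside these, 48.6% of the genes of arm 2L and 52.5% of the 11760 genes were above WT in the fit. At an unadjusted p under 0.05 were 7.2% of the 11760 genes.

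Which libraries entered the fit decided the few calls. Without WT 3, edgeR's quasi-likelihood test called 20 genes at an adjusted p under 0.05, 1 higher and 19 lower. In 18 of those 19 WT 3 was the lowest WT library. Genes called lower only when WT 3 is left out are apt to have it low, so this count follows in part from the selection. The 19 included 5 of the seminal fluid list, Acp70A, Acp95EF, Dup99B, Mst57Db and Sfp96F, together with Anp and PebII. CG6555 and CG15841, also among the 19, have identical counts and cannot be told apart. Acp70A was then at 0.73-fold with an adjusted p of 2.24e-04, against 0.82-fold and 0.797 with all libraries. CG43319 (FBgn0263024), chosen after its values were seen, had 2050, 2032 and 2126 counts in GP/P, against 2568, 2739 and 2001 counts in WT. It was called at 0.78-fold by DESeq2 with the block on all 9 libraries, with an adjusted p of 0.00926, and by edgeR only without WT 3.

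Without WT 2 the genes Ppn, a matrix protein of basement membranes, and CG3523 were called as higher, at 1.22-fold and 1.197-fold. Without GP/P 2 the gene h, which encodes the repressor Hairy, was called as higher at 1.32-fold with an adjusted p of 0.00994 (edgeR). It had 3152, 3417 and 5713 counts in GP/P, against 2819, 3068 and 3091 counts in WT, so GP/P 3 was the highest library. Without GP/P 1, Listericin, an antibacterial protein, was called as lower at 0.62-fold beside TotC as higher. Leaving out WT 1, GP/P 3 or any GP/M library gave no call.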

How the data were processed

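RNA was isolated with Trizol and libraries were made with polyA selection, per the labels' protocols. Novoalign, DESeq and the build dm3 are named, with no versions, in the submitters' processing notes. Raw counts per gene and library were deposited by the authors, per the file headers, and were used here. The authors' deposited log2 fold changes and p-values with their adjusted values are quoted only as such, and 18 columns of the authors' deposited normalised signal were not used. For multiply mapped reads and for strand, the counting rule was not given in the sources used here. Near-identical and overlapping genes are therefore uncertain. Among them, 180 members shared all 9 counts with another gene, such as CG6555 and CG15841.

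Counts were fitted with edgeR 4.0.16 in R 4.3.3 (TMM, filterByExpr by group, robust quasi-likelihood F-test) over all 9 libraries, with group and set as terms. Adjustment was Benjamini-Hochberg over 12913 genes. The standard error was taken as log2 fold change divided by the root of F. CPM values use TMM library sizes, with a prior count of 2 on the log2 scale. The script was tested on simulated data. Alternatives were no block, GP/P and WT only, RLE or upper-quartile scaling, other filters, DESeq2 1.42.0, limma-voom 3.58.1, a loess trend on exon length removed (span 0.5; length known for 96.1% of genes) and leaving out each library. Where a library was left out, its set kept its other libraries. With a WT or GP/P library left out, the GP/M library of that set therefore bore on the fold change.

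Libraries pair by number because the labels tie a set to each experiment. Deviations from group means correlated at 0.119 to 0.426 in all 9 same-numbered pairs, and at -0.401 to 0.068 in the others. The biological coefficient of variation was 4.36% with the block and 6.56% without. No libraries were copies (chi-square per gene of at least 3.54).

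The genes and the 38 lists were chosen with earlier results of these data known; 17 symbols of the lists were unmatched, leaving 1038 distinct genes. Named genes were the 10 with the smallest p in each direction, the 5 with the largest paired difference on the same side in 3 sets, the 5 most abundant at an unadjusted p under 0.05, the 2 smallest p of each list, and AkhR, Akh, bmm and Hsl. Members shown beyond these, among them other list genes and genes called only with a library left out, were picked after their values were seen. Positions are of another build than dm3, so only chromosome arm, gene order and exon length were taken from the reference (Ensembl BDGP6).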

Additional observations from a re-analysis of the deposited data

How the results depend on the processing

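The count of genes past the adjusted threshold was 0 in the main test and under no block, other scaling, other filters, GP/P and WT only, limma-voom, DESeq2 on 6 libraries, the length trend removed and a threshold of 0.1. It was 1 with DESeq2 on 9 libraries, and 0 to 20 without 1 library, with 2 calls without WT 2 or GP/P 1, 1 without GP/P 2 and 20 without WT 3. An unadjusted p under 0.05 was reached by 885 genes, 441 higher and 444 lower. Without the replicate block there were 334 (141 higher, 193 lower), with DESeq2 on 9 libraries 255 (114 and 141) and on 6 libraries 143 (57 and 86), and at a p of 0.01 there were 194. Without 1 library the total ran from 543 to 1185, with 250 to 683 higher and 290 to 521 lower; it was 543 (253 higher) without WT 1 and 563 without GP/P 2. Upper-quartile scaling gave 366 higher and 527 lower. Genes past 1.2-fold in every set were 20 higher and 19 lower at a mean of at least 10 counts, and 1 and 0 at 200 counts. Of 110 named genes, 101 kept their sign in every setting, and 2064 of 2085 recomputed values kept their side of the threshold and their sign. List medians kept their sign under every setting for glycolysis, TCA cycle, fatty acid oxidation, muscle, seminal fluid, antimicrobial, Y-linked, chaperone and Polycomb genes, and changed it in at least 1 setting for AKH, sperm, siRNA, piRNA, hemocyte, Turandot, respiratory chain and ribosomal protein genes. The causes were not tested. With 3 sets, precision was lowest for genes of 50 to 200 counts, where 38.3% of 95% intervals lay inside 1.25-fold.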
